A study of Homo sapiens with 18 samples.

Results

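The tricarboxylic acid (TCA) cycle enzymes that act after citrate synthase were followed through 9 genes, IDH3A, IDH3B, IDH3G, OGDH, DLST, SUCLA2, SUCLG1, FH and MDH2, matched by symbol among 57500 genes in the count table. All 9 were found once and all 9 passed the filter on low counts, which kept 16994 genes. The RNA-seq set held 18 libraries of IMR90, a line of human lung fibroblasts, with 3 libraries in each of 6 groups. The groups were proliferating cells (Prol), cells made senescent by ionizing radiation (Sen (IR)), irradiated cells that also received CCCP (Sen (IR) + CCCP), and the last kind given acetate, mtDNA or both. CCCP uncouples mitochondria, and an engineered trait of the cells makes them clear their mitochondria when CCCP is given, so the 4 CCCP groups are irradiated cells depleted of mitochondria. All 6 groups come from 1 cell line, and nothing in the labels says whether the 3 libraries of a group came from separate cultures, so p-values measure the spread between these libraries, which may be technical.

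The TCA cycle oxidizes acetyl groups inside the mitochondrion, and all 9 proteins are encoded in the nucleus and imported. Isocitrate dehydrogenase 3 turns isocitrate into α-ketoglutarate with NAD and is built from the catalytic subunit IDH3A with IDH3B and IDH3G. The α-ketoglutarate dehydrogenase complex, whose first component is OGDH and whose succinyl-transferring core is DLST, makes succinyl-CoA. Succinyl-CoA synthetase then releases succinate. Its α subunit SUCLG1 pairs either with SUCLA2 to make ATP or with SUCLG2 to make GTP. Fumarate hydratase (FH) adds water to fumarate and malate dehydrogenase 2 (MDH2) restores oxaloacetate, which accepts the next acetyl group from citrate synthase. In senescent fibroblasts the cycle is of interest because citrate leaving the mitochondrion is a source of acetyl-CoA for the rest of the cell.

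In the GRCh38 build (GENCODE v44), IDH3A lies on chromosome 15 from 78131498 to 78171945, IDH3B on chromosome 20 from 2658395 to 2664219, and IDH3G on chromosome X from 153785766 to 153794512. OGDH spans 44606572 to 44709066 on chromosome 7, DLST 74881891 to 74903743 on chromosome 14, SUCLA2 47745736 to 48037968 on chromosome 13 and SUCLG1 84423528 to 84460045 on chromosome 2. FH lies on chromosome 1 from 241497511 to 241519799, and MDH2 on chromosome 7 from 76048051 to 76067508. Reads were counted over exons, 9 to 23 of them in the canonical transcripts of these genes. Some exon bases are shared with a gene on the opposite strand, and whether counting used strand is not stated for these libraries. IDH3G shares 267 of 2699 exon bases with SSR4, and IDH3A shares 2608 of 6823 with ACSBG1. Summed over the 18 libraries, SSR4 had 27102 counts against 12421 for IDH3G, and ACSBG1 had 89 against 17155 for IDH3A. Processed pseudogenes of 3 members held few counts, the most being 90 for DLSTP1 against 62009 for DLST.

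The 250 bases before the start site are shown for subunit genes that moved in opposite directions within one enzyme with CCCP after TMM scaling. These were the isocitrate dehydrogenase genes IDH3A, IDH3B and IDH3G and the succinyl-CoA synthetase genes SUCLA2 and SUCLG1. DLST and OGDH also moved apart with CCCP, but both fell, and they are not shown. The sequences are RefSeq of build GRCh38.p14, read 5′ to 3′ on the strand of the gene. Of the 9 members 8 had an entry, and OGDH had none. The windows are chr15:78149112-78149361 (plus strand), chr20:2664217-2664466 (minus strand), chrX:153794376-153794625 (minus strand), chr13:48001274-48001523 (minus strand) and chr2:84459281-84459530 (minus strand). Capitals mark the ETS core CCGGAAG, the CCAAT box and the nuclear receptor core AAGGTCA, on either strand.
IDH3A: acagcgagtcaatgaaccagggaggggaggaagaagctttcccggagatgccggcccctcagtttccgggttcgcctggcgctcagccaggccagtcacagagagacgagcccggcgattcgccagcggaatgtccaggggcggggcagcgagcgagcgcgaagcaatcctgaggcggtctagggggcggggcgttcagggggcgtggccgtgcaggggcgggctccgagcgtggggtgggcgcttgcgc
IDH3B: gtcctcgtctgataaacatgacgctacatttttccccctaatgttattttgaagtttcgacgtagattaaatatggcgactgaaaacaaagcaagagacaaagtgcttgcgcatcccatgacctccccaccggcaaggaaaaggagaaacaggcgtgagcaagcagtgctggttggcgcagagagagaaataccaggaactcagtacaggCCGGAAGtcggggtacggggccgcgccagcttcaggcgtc
IDH3G: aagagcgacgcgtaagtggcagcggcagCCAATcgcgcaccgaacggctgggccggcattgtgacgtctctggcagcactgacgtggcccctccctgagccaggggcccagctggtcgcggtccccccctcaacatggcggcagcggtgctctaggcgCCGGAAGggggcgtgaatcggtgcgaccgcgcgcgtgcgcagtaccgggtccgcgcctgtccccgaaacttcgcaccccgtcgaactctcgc
SUCLA2: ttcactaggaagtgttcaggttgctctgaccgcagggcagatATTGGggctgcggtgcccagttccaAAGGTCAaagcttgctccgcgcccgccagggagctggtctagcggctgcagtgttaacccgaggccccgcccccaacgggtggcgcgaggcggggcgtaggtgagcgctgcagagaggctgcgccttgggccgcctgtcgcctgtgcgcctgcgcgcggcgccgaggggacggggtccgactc
SUCLG1: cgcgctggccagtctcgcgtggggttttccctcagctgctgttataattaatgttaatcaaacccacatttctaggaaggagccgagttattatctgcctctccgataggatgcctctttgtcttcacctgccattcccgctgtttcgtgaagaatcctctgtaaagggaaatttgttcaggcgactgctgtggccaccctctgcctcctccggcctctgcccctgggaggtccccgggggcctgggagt

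Searched on both strands over 300 bases, 250 before and 50 after the start, the ETS core CCGGAAG was found in 4 of the 8 members, IDH3B, IDH3G, DLST and MDH2, and in 10.3% of 35116 promoters. In IDH3B it began 40 bases before the start site and in IDH3G 92 bases before it. The GC box GGGCGG was in 4 members and 45.0% of promoters, and CCAAT was in 4 members and 34.6% of promoters. AAGGTCA was in SUCLA2, 183 bases before the start, and in 3.92% of promoters. No member held the NRF1 core GCATGCG (3.91% of promoters) or TATAAA (11.5%). No match of one motif overlapped a match of another in these windows. The matches are letters only and were not tested as binding sites.

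Libraries held 24624886 to 46224280 counts on genes (median 29620505.5), and single members had between 411 and 5667 counts in a library. Transcripts of the 13 protein-coding mtDNA genes made up 2.62% ± 0.295 (SD, n = 3) of counts in Prol, 2.11% ± 0.468 in Sen (IR) and 0.122% ± 0.0117 in Sen (IR) + CCCP. The share was 0.132% with acetate, 0.0505% with mtDNA and 0.121% ± 0.1 with both, where replicate 2 stood at 0.237%. Between libraries of one group, the χ2 per gene was 2.79 to 7.78, except for Sen (IR) replicate 3 (22.3 and 27.8 against its partners) and the combination's replicate 2 (24.9 and 28.5), which stand apart. Summed over 12 fibroblast markers, libraries held 41906 to 46209 CPM (counts after TMM scaling for library size) in Prol, 23131 to 28732 in Sen (IR) and 7652 to 7990 in Sen (IR) + CCCP. The 4 epithelial markers summed to 27.9 to 30.5 CPM in Prol, 8.99 to 12.9 in Sen (IR) and at most 5.21 in the CCCP groups, nearly all of it KRT19. The endothelial, leukocyte and muscle lists each summed to at most 2.13 CPM in any library, and MYOD1 was at 0 in all. The part of these differences in the changes below was not tested, and in bulk RNA fewer cells of a kind and less RNA per cell cannot be told apart.

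TMM scaling of CPM sets the typical gene equal between libraries, and CPM serve to compare libraries. TPM, as deposited, are scaled to a common total and corrected for gene length, and they are used to compare genes. Which length was used for each gene is not given in the sources used here. The order of genes by TPM depends on it. SUCLG1, for example, has 1270 bases in its canonical transcript and 4162 over all its exons. On the TPM scale MDH2 was the most abundant and IDH3A the least abundant of the 9 in each of the 6 groups. In Prol, MDH2 stood at 106 ± 6.35 TPM (SD, n = 3), FH at 97.5, DLST at 95.6, SUCLA2 at 65.7, OGDH at 63.6, SUCLG1 at 47.8, IDH3B at 42.0, IDH3G at 39.6 and IDH3A at 11 ± 0.466. Of neighbours in this order, FH and DLST, OGDH and SUCLA2, and IDH3B and IDH3G had overlapping libraries, while MDH2 lay above FH in every library. In Sen (IR) + CCCP the order was MDH2 at 171 ± 0.819 TPM, DLST 133, SUCLA2 119, IDH3B 118, FH 82.4, OGDH 54.3, SUCLG1 44.2, IDH3G 35.9 and IDH3A 25.8. Here IDH3B and SUCLA2 overlapped and the other neighbours were apart, so IDH3B, which had stood below SUCLG1 and OGDH in Prol, lay above both after CCCP. The 9 genes summed to 569 ± 18 TPM in Prol, 646 ± 40.3 in Sen (IR) and 783 ± 5.75 with CCCP. The sum was 642 ± 6.95 with acetate added, 760 ± 11.1 with mtDNA and 621 ± 18 with both. On this scale the median log2(TPM + 1) change of all genes was itself 0.35 for CCCP against Sen (IR). The sums therefore do not show a rise relative to the typical gene, and with TMM scaling the median log2 fold change of the 9 was -0.18.

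**Figure D1:**
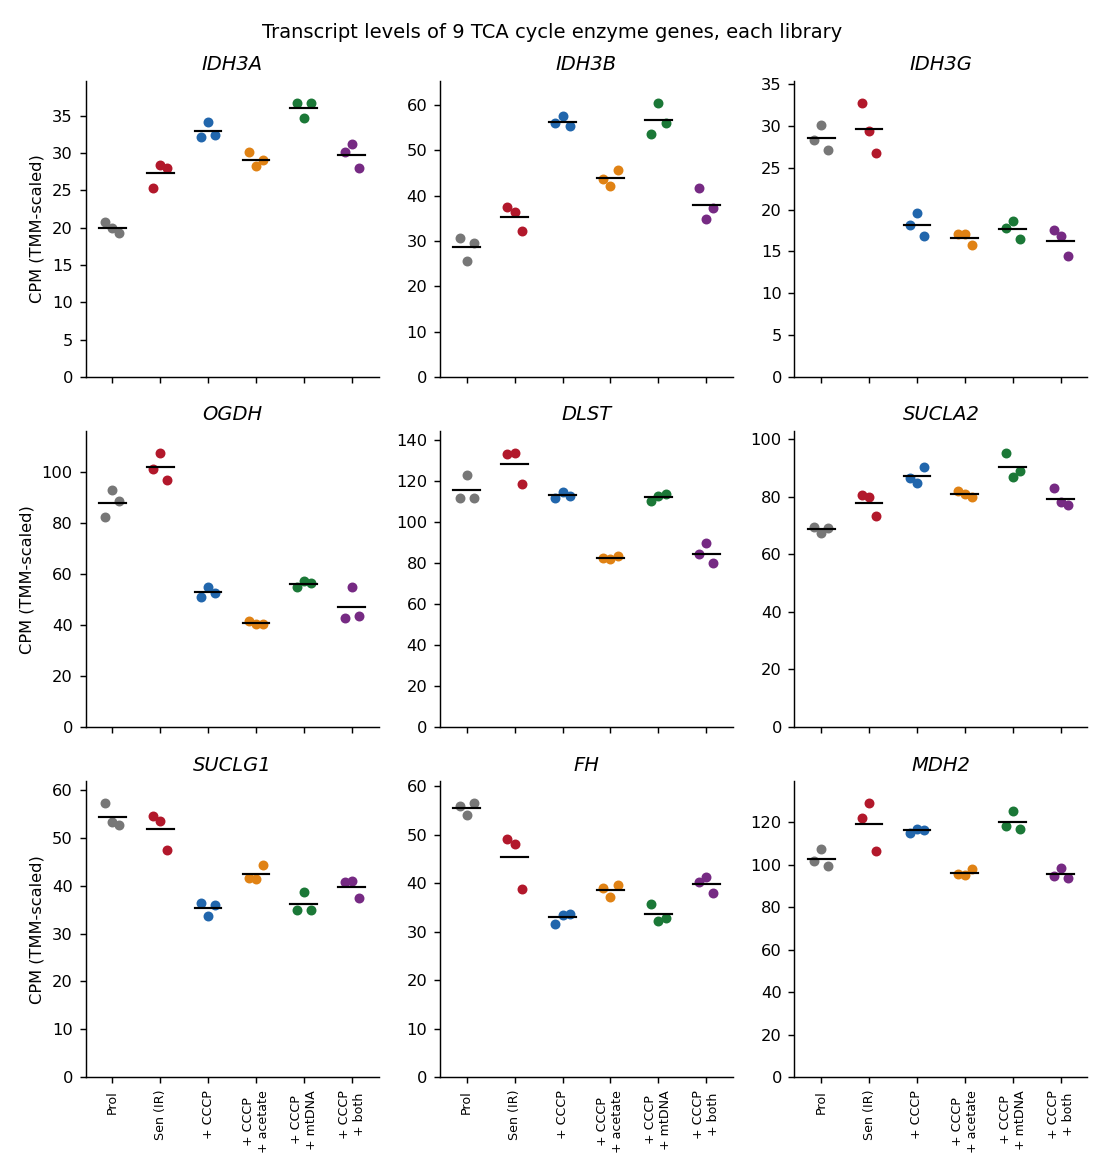
TMM-scaled CPM (vertical axis, from 0) of each gene in each of the 18 libraries, as points for the 3 libraries of a group and a bar for their mean. IDH3A and IDH3B step up from Prol to Sen (IR) and again with CCCP, OGDH, IDH3G, SUCLG1 and FH step down with CCCP, and the mtDNA group sits near the CCCP group for all 9.

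The first comparison asked how these enzymes differ between senescent and proliferating cells. Of the 9 genes, 6 rose in Sen (IR), IDH3A, IDH3B, OGDH, DLST, SUCLA2 and MDH2, and FH fell, with the largest change 1.36-fold. The median log2 fold change of the 9 was 0.18 against -0.01 for all genes tested. Across all 16994 genes 26.7% were called higher and 29.9% lower (56.7% in either direction) by the quasi-likelihood test of edgeR with a threshold of 0.05 on the adjusted p.

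The catalytic subunit IDH3A had the largest change. Its CPM were 20.7, 19.9 and 19.3 in Prol and 25.3, 28.4 and 28 in Sen (IR), without overlap, and its log2 fold change was 0.44 ± 0.06, adjusted p = 1.98e-06 (SE, n = 3 against 3). IDH3B stood at 30.7, 25.5 and 29.6 CPM in Prol and 37.5, 36.4 and 32.2 in Sen (IR), also apart (0.30 ± 0.08, adjusted p = 0.00150). IDH3G, the third subunit, had 28.4, 30.1 and 27.1 CPM in Prol and 32.8, 29.4 and 26.7 in Sen (IR), which overlapped. Its log2 fold change was 0.06 ± 0.08, with a 95% interval of -0.11 to 0.23.

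FH had 55.9, 54.0 and 56.4 CPM in Prol and 49.2, 48.1 and 38.8 in Sen (IR), all lower, and its log2 fold change was -0.29 ± 0.07, adjusted p = 0.00104. The lowest of these was Sen (IR) replicate 3, and without that library the change was -0.19 (adjusted p = 0.00484). MDH2, which acts after FH, had 102, 107 and 99.3 CPM in Prol and 122, 129 and 107 in Sen (IR), overlapping through replicate 3, and rose (0.21 ± 0.06, adjusted p = 0.00219). SUCLA2 rose with no overlap, from 67.5 to 69.5 to 73.4 to 80.6 CPM (0.18 ± 0.05, adjusted p = 0.00279), while SUCLG1 did not pass the test (-0.07 ± 0.06, adjusted p = 0.362). OGDH (0.21 ± 0.07, adjusted p = 0.0119) and DLST (0.15 ± 0.05, adjusted p = 0.0163) rose by small amounts. The OGDH call was lost without Prol replicate 1 or Sen (IR) replicate 2 (log2 fold change down to 0.14), and the DLST call without Prol replicate 1 or 3 or Sen (IR) replicate 1 or 2 (down to 0.10). Without the filter on low counts, the calls of DLST (0.13, adjusted p = 0.127) and SUCLA2 (0.16, adjusted p = 0.0534) were lost as well.

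**Figure D2:**
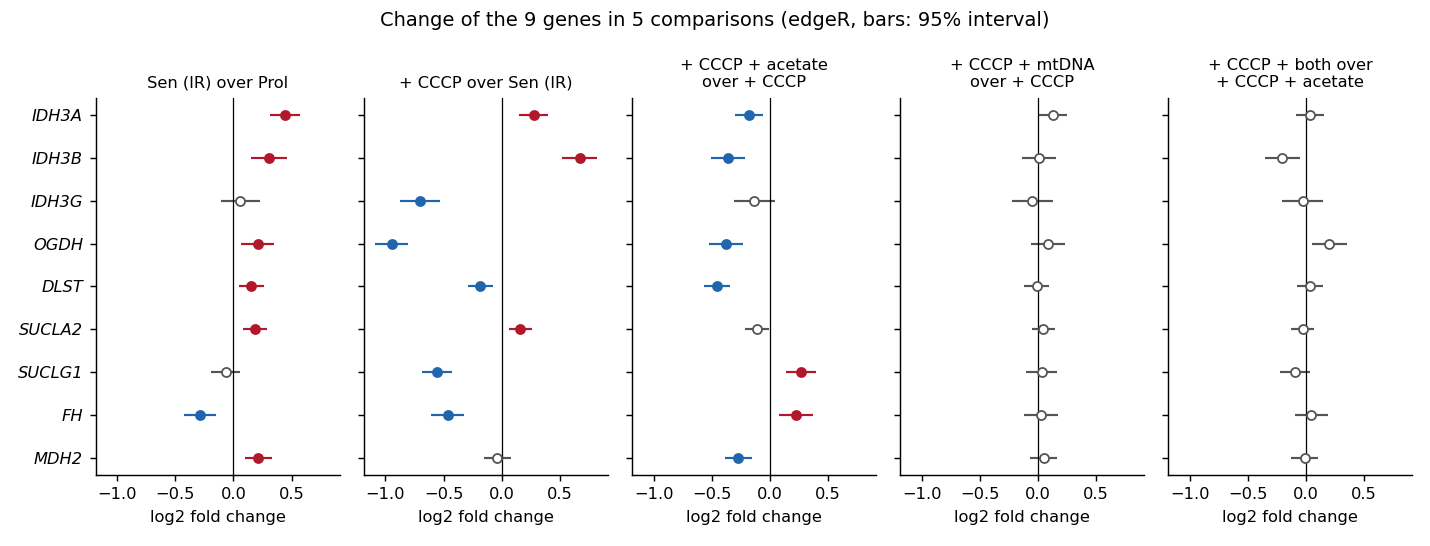
Log2 fold change (horizontal axis) of the 9 genes in 5 comparisons, with 95% intervals from edgeR. Red points passed an adjusted p of 0.05 as higher, blue as lower, and open points did not pass. The CCCP panel spreads from -0.95 for OGDH to 0.67 for IDH3B, the acetate panel has SUCLG1 and FH on the right and 5 genes on the left, and all points of the mtDNA panel are open.

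With CCCP the 9 genes moved in both directions, and so did genes as a whole. Exposure to CCCP and the loss of mitochondria cannot be told apart in these groups. Against Sen (IR), IDH3A, IDH3B and SUCLA2 rose, while IDH3G, OGDH, DLST, SUCLG1 and FH fell, and MDH2 did not pass the test. Across all genes 34.0% were called higher and 31.3% lower (65.2% in either direction), and the median log2 fold change was -0.18 for the 9 genes and 0.03 for all genes. These changes are relative to the typical gene. Scaled by total counts alone the median of all genes shifted by 0.29 in this comparison, and in log2(TPM + 1) by 0.35, and the signs that this turns are given with the genes. By total counts the median of all genes also shifted by 0.38 for CCCP against Prol, -0.12 for acetate and -0.21 for the combination against CCCP, -0.13 for the combination against mtDNA, and 0.14 for acetate against Sen (IR).

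OGDH fell the most. Its CPM were 101, 107 and 97.0 in Sen (IR) and 51.0, 54.8 and 52.6 in Sen (IR) + CCCP, far apart, a fall of 1.93-fold (-0.95 ± 0.07, adjusted p = 7.44e-11). The level with CCCP was also below Prol (-0.74). DLST, its partner in the complex, moved little, from 133, 133 and 118 to 112, 115 and 113 CPM. It fell relative to the typical gene (-0.18 ± 0.05, adjusted p = 0.00405), whereas by total counts (0.08) and on the TPM scale (0.24) its change was positive, which after subtracting the shift of all genes is -0.21 and -0.11. The dihydrolipoyl dehydrogenase DLD, the third component, fell from 157 ± 11.1 to 97.1 ± 1.65 CPM (-0.70 ± 0.05, adjusted p = 4.63e-11). For MRPS36, an adaptor of this complex, the log2 fold change was -0.05 ± 0.08 (adjusted p = 0.566).

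Within isocitrate dehydrogenase 3 the subunit transcripts moved in opposite directions. IDH3B, with the promoter shown above, went from 37.5, 36.4 and 32.2 to 56.1, 57.5 and 55.4 CPM, a rise of 1.59-fold (0.67 ± 0.07, adjusted p = 3.45e-08). IDH3A rose less, from 25.3, 28.4 and 28 to 32.1, 34.1 and 32.4 CPM (0.28 ± 0.06, adjusted p = 0.000286). IDH3G fell from 32.8, 29.4 and 26.7 to 18.2, 19.5 and 16.8 CPM (-0.70 ± 0.08, adjusted p = 1.32e-07). No CCCP library overlapped a Sen (IR) library in any of these genes, and their directions were kept by total counts and on the TPM scale. Since IDH3G shares exon bases with SSR4, reads in the shared bases may affect its counts, in a direction that was not tested.

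In succinyl-CoA synthetase the common α subunit fell while the ATP-forming β subunit rose. SUCLG1 had 54.4, 53.6 and 47.4 CPM in Sen (IR) and 36.4, 33.6 and 36.0 with CCCP (-0.55 ± 0.06, adjusted p = 6.21e-08). SUCLA2 had 80.6, 79.9 and 73.4 CPM and 86.6, 84.9 and 90.4 with CCCP (0.16 ± 0.05, adjusted p = 0.00557), so the groups did not overlap in either gene. The GTP-forming partner SUCLG2 had a log2 fold change of -0.09 ± 0.05 and did not pass the test (adjusted p = 0.158). FH went from 49.2, 48.1 and 38.8 to 31.6, 33.5 and 33.7 CPM (-0.46 ± 0.07, adjusted p = 4.13e-06). On the TPM scale the falls of SUCLG1 (-0.12) and FH (-0.03) no longer passed, and relative to the shift of all genes they were -0.48 and -0.38.

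MDH2 held 122, 129 and 107 CPM in Sen (IR) and 115, 117 and 117 with CCCP, with overlap (-0.04 ± 0.05, adjusted p = 0.579). Without Sen (IR) replicate 3 it passed as lower (-0.11, adjusted p = 0.0402), without Sen (IR) replicate 2 its sign was positive (0.04), and on the TPM scale it was higher (0.39, or 0.04 after subtracting the shift of all genes). Measured against Prol rather than Sen (IR), a comparison that shares the CCCP libraries, 4 of the 9 genes were higher and 4 lower with CCCP, where 35.1% and 34.1% of all genes were (69.2% in either direction). IDH3B stood highest at 1.97-fold (0.98 ± 0.07, adjusted p = 9.08e-11) and FH lowest (-0.75 ± 0.07, adjusted p = 2.39e-09). On the TPM scale IDH3G (-0.14, adjusted p = 0.127) and SUCLG1 (-0.11, adjusted p = 0.0854) did not pass as lower than Prol.

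Ratios between subunits within a library are free of the scaling between libraries. Their level depends on the gene lengths used for TPM, while their fold difference between groups does not. The TPM of IDH3G over that of IDH3B was 0.872, 1.11 and 0.866 in the 3 Prol libraries, 0.826, 0.762 and 0.785 in Sen (IR) and 0.307, 0.321 and 0.287 with CCCP, so it was 2.60-fold lower with CCCP than in Sen (IR). It was 0.369, 0.383 and 0.328 with acetate added and 0.399, 0.457 and 0.366 with both, above every CCCP library. SUCLA2 over SUCLG1 was 1.32, 1.38 and 1.43 in Prol, 1.61, 1.62 and 1.69 in Sen (IR), 2.59, 2.76 and 2.73 with CCCP and 2.14, 2.13 and 1.96 with acetate. This ratio therefore separated each of these groups from the next.

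DLST over OGDH was 1.51, 1.42 and 1.40 in Sen (IR) and 2.51, 2.40 and 2.45 with CCCP, 1.70-fold higher, and overlapped between Prol and Sen (IR). SUCLA2 over SUCLG2, the choice between the ATP-forming and the GTP-forming β subunit, was 0.528, 0.527 and 0.528 in Prol, 0.725, 0.691 and 0.737 in Sen (IR) and 0.878, 0.831 and 0.853 with CCCP. IDH3A over IDH3B was 1.32-fold lower with CCCP than in Sen (IR). Of 20 ratio comparisons (5 ratios in 4 comparisons), 17 had groups that did not overlap, each with an exact two-sided permutation p = 0.1, the smallest that 3 libraries against 3 allow, and 0.118 after adjustment over the 20. No threshold of 0.05 could be reached by this test. How often ratios of other gene pairs separate in this way was not counted, and the 20 comparisons share libraries and genes.

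**Figure D3:**
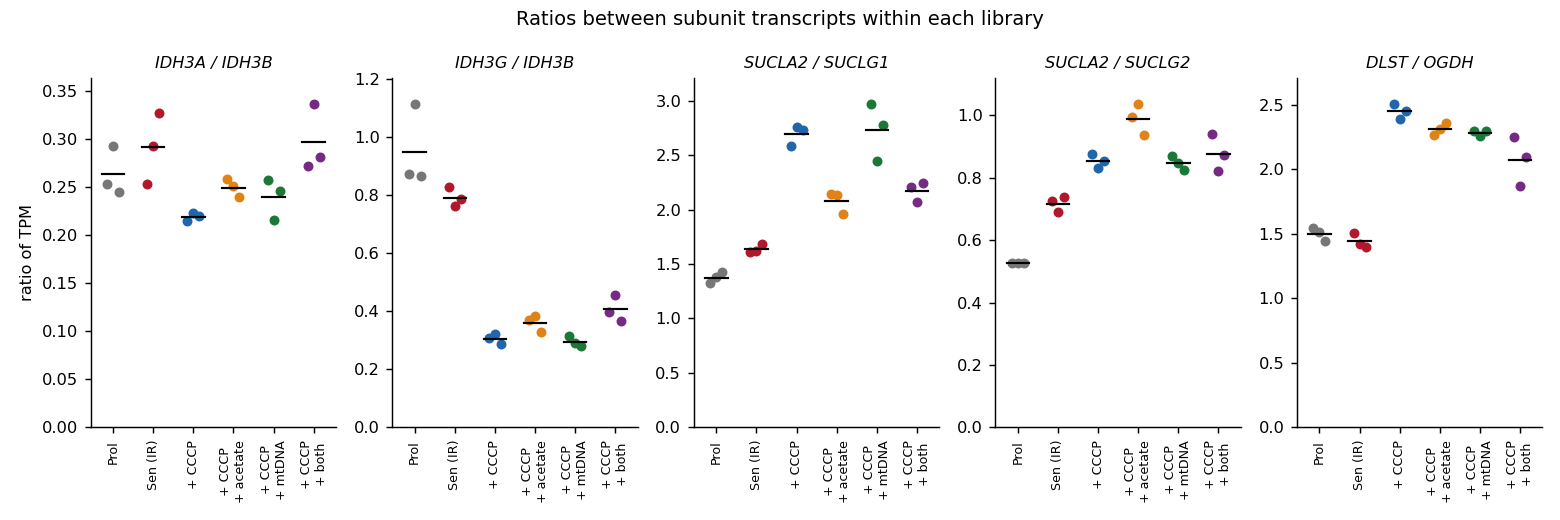
Ratio of TPM between 2 transcripts (vertical axis, from 0) in each of the 18 libraries, with a bar for the mean of each group of 3. IDH3G over IDH3B falls from a mean of 0.950 in Prol to a mean of 0.305 with CCCP, and SUCLA2 over SUCLG1 and DLST over OGDH rise with CCCP. The level of a ratio depends on the gene lengths used for TPM.

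Acetate, which cells can turn into acetyl-CoA outside the mitochondrion, was added to mitochondria-depleted cells in the next comparison. Against Sen (IR) + CCCP, SUCLG1 and FH rose, and IDH3A, IDH3B, OGDH, DLST and MDH2 fell. Among all genes 28.8% were called higher and 28.3% lower (57.1% in either direction). The median log2 fold change was -0.18 for the 9 genes and 0.01 for all genes.

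Of the α-ketoglutarate dehydrogenase complex, the members DLST and OGDH both fell. DLST had 112, 115 and 113 CPM with CCCP and 82.1, 81.9 and 83.3 with acetate (-0.45 ± 0.05, adjusted p = 1.83e-07). OGDH had 51.0, 54.8 and 52.6 CPM with CCCP and 41.5, 40.5 and 40.4 with acetate (-0.37 ± 0.07, adjusted p = 0.000107). The groups were apart in both genes, and DLD did not pass (0.08 ± 0.05, adjusted p = 0.180). Against Sen (IR), OGDH with CCCP and acetate was 2.5-fold lower (-1.32 ± 0.07, adjusted p = 3.11e-13), the largest difference of any of the 9 genes in the 11 comparisons.

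IDH3B fell from 56.1, 57.5 and 55.4 to 43.8, 42.2 and 45.5 CPM (-0.36 ± 0.07, adjusted p = 0.000149), which left it above Sen (IR) (0.31 ± 0.07, adjusted p = 0.000749). IDH3A fell from 32.1, 34.1 and 32.4 to 30.1, 28.2 and 29.1 CPM (-0.18 ± 0.06, adjusted p = 0.0117), a call lost without CCCP replicate 2 or acetate replicate 2 or 3 (log2 fold change down to -0.13) and without the filter on low counts (-0.18, adjusted p = 0.0664). For IDH3G the log2 fold change was -0.13 ± 0.08 and the groups overlapped. It passed as lower by total counts (-0.25, adjusted p = 0.0102) and on the TPM scale (-0.22, adjusted p = 0.0315), where the median of all genes was also below 0. MDH2 fell from 115, 117 and 117 to 95.7, 95.4 and 98.2 CPM (-0.27 ± 0.06, adjusted p = 0.000238).

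SUCLG1 and FH, both lower with CCCP, were higher with acetate than without it. SUCLG1 had 41.7, 41.3 and 44.3 CPM with acetate against 36.4, 33.6 and 36.0 without (0.27 ± 0.06, adjusted p = 0.000861). FH had 39.1, 37.1 and 39.5 CPM against 31.6, 33.5 and 33.7 (0.23 ± 0.07, adjusted p = 0.00756). Neither group overlapped its control, although by total counts the FH difference was 0.11 and on the TPM scale 0.13, and neither passed. Relative to Sen (IR) both remained lower, SUCLG1 by -0.29 ± 0.06, adjusted p = 0.000274 and FH by -0.24 ± 0.07, adjusted p = 0.00434 on the log2 scale, while on the TPM scale these signs were positive (0.04 and 0.10). The FH call against Sen (IR) was lost without Sen (IR) replicate 1 or 2 (down to -0.17). SUCLA2 had 86.6, 84.9 and 90.4 CPM without acetate and 82.0, 81.0 and 79.9 with it, and its difference of -0.11 ± 0.05 had an adjusted p of 0.0575. It passed as lower in a fit of the compared groups alone (-0.12, adjusted p = 0.00790), with at least 10 counts in every library (-0.11, adjusted p = 0.0457), without Sen (IR) replicate 3 (adjusted p = 0.0318), by total counts (adjusted p = 0.000173) and on the TPM scale (adjusted p = 0.000471).

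Beside these changes, the 4 genes that check senescence, MKI67, LMNB1, CDKN1A and CDKN2A, were followed. MKI67, a marker of cycling cells, was at 59.1 ± 0.983 CPM in Prol, 15.3 ± 2.21 in Sen (IR), 30.4 ± 1.81 with CCCP and 3.19 ± 0.424 with acetate added. LMNB1, the lamin that is lost in senescence, was at 24.0 ± 1.26, 8.52 ± 0.760, 13.3 ± 1.39 and 2.91 ± 0.0429 CPM in the same groups. CDKN1A, the cell cycle inhibitor p21, stood at 698 ± 24.0, 991 ± 46.0, 1100 ± 32.7 and 1852 ± 67.5 CPM, and CDKN2A at 4.35 ± 0.597, 6.65 ± 0.662, 6.45 ± 0.494 and 8.54 ± 0.342. The part of cycling cells in the changes of the 9 genes was not tested.

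Addition of mtDNA to mitochondria-depleted cells left all 9 genes short of the threshold, with 0 calls in edgeR and 0 in DESeq2's Wald test. Across all genes 18.1% were called. At an unadjusted p of 0.05, 1 of the 9 passed in each tool, and the share of all genes at that threshold was not counted. In edgeR that was IDH3A, at 36.7, 34.7 and 36.6 CPM against 32.1, 34.1 and 32.4 (log2 fold change 0.13 ± 0.06, adjusted p = 0.132). The log2 fold changes of the other 8 ran from -0.05 for IDH3G to 0.09 for OGDH. Their 95% intervals lay between -0.23 and 0.24, and each included 0.

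OGDH had 54.9, 57.1 and 56.6 CPM with mtDNA and 51.0, 54.8 and 52.6 without, just apart, with an interval of -0.06 to 0.24. IDH3B had 53.6, 60.4 and 56.0 against 56.1, 57.5 and 55.4, on both sides of the control, and an interval of -0.14 to 0.16. DLST had 110.3, 112 and 114 CPM, overlapping the CCCP libraries, and an interval of -0.12 to 0.10.

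With acetate and mtDNA together, SUCLG1 and FH rose against Sen (IR) + CCCP and IDH3A, IDH3B, OGDH, DLST, SUCLA2 and MDH2 fell, while 30.3% of all genes were called higher and 31.4% lower (61.7% in either direction). IDH3B had 41.6, 34.8 and 37.2 CPM and changed the most (-0.57 ± 0.07, adjusted p = 5.61e-07). DLST had 84.1, 89.7 and 79.8 CPM (-0.42 ± 0.05, adjusted p = 5.51e-07), and MDH2 had 94.6, 98.8 and 93.9 CPM (-0.28 ± 0.06, adjusted p = 0.000152). FH had 40.1, 41.3 and 38 CPM, above each CCCP library (0.27 ± 0.07, adjusted p = 0.00189). By total counts (0.10, adjusted p = 0.189) and on the TPM scale (0.14, adjusted p = 0.0614) the FH difference did not pass. For 4 genes the call was near the threshold, IDH3A (-0.15 ± 0.06, adjusted p = 0.0359), OGDH (-0.17 ± 0.07, adjusted p = 0.0407), SUCLA2 (-0.14 ± 0.05, adjusted p = 0.0186) and SUCLG1 (0.17 ± 0.06, adjusted p = 0.0222).

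These 4 calls changed with the libraries and settings used. Leaving out Prol replicate 1 or Sen (IR) replicate 2, which are not in this comparison, was enough to end the IDH3A and OGDH calls. Among 18 fits that each left out 1 library, the IDH3A call was lost in 13, the OGDH call in 14, the SUCLA2 call in 9 and the SUCLG1 call in 1 (without CCCP replicate 2, adjusted p = 0.0635), and the SUCLG1 sign turned by total counts (-0.01). Other settings also ended them, DESeq2 size factors and the Wald test for IDH3A, OGDH and SUCLA2, no filter for IDH3A, SUCLA2 and SUCLG1, the compared groups alone for IDH3A and OGDH, and the TPM scale for SUCLG1. Over the leave-one-out fits the adjusted p ranged from 0.0289 to 0.324 for IDH3A, 0.000197 to 0.368 for OGDH and 0.0085 to 0.19 for SUCLA2. OGDH in the combination's replicate 2 was at 54.8 CPM against 42.7 and 43.6 in its partners, and without that library the change was -0.28 (adjusted p = 0.000197). Without the same library IDH3B changed by -0.50. IDH3G, not called here, passed as lower by total counts (-0.34, adjusted p = 0.00114) and on the TPM scale (-0.29, adjusted p = 0.00569), and against mtDNA by total counts (-0.22, adjusted p = 0.0261).

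Against mtDNA alone, the combination had FH higher and the same 6 genes as above lower, where 27.4% of all genes were higher and 29.9% lower (57.4% in either direction). IDH3B (-0.58 ± 0.07, adjusted p = 5.76e-07), DLST (-0.41 ± 0.05, adjusted p = 9.67e-07) and MDH2 (-0.33 ± 0.06, adjusted p = 2.74e-05) led. SUCLG1 did not pass (0.14 ± 0.06, adjusted p = 0.0655). It passed with DESeq2 size factors (adjusted p = 0.0310), with at least 10 counts in every library (0.0437), in DESeq2's Wald test (0.0418) and in 10 of 18 fits that each left out 1 library, while FH did not by total counts (0.14, adjusted p = 0.0688). This comparison and the previous one share the combination's libraries. Side by side with acetate alone over CCCP, the log2 fold changes of acetate in the presence and absence of mtDNA were -0.58 and -0.36 for IDH3B, -0.26 and -0.37 for OGDH, -0.41 and -0.45 for DLST, and 0.25 and 0.23 for FH.

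The interaction of acetate and mtDNA, how far the change with mtDNA differed once acetate was also given, was called in 0 of the 9 genes and in 0.659% of all genes. At an unadjusted p of 0.05 edgeR gave 1, IDH3B (-0.21 ± 0.10, interval -0.42 to 0.00, adjusted p = 0.425), and DESeq2 gave 0. OGDH had an interaction of 0.11 ± 0.10 with an interval of -0.10 to 0.32. The combination against acetate alone gave 0 calls in edgeR, where 12.6% of all genes were called, and 1 in DESeq2. At an unadjusted p of 0.05 both tools gave 2, which in edgeR were IDH3B and OGDH. The share of all genes at an unadjusted p of 0.05 was not counted for this comparison or for the interaction. IDH3B had 41.6, 34.8 and 37.2 CPM with both against 43.8, 42.2 and 45.5 with acetate alone, all lower (-0.21 ± 0.07, adjusted p = 0.0655). OGDH had 42.7, 54.8 and 43.6 CPM against 41.5, 40.5 and 40.4, all higher (0.20 ± 0.07, adjusted p = 0.0700). The IDH3B difference passed without Prol replicate 2, Sen (IR) replicate 3 or the combination's replicate 1 (adjusted p down to 0.0229), the OGDH difference without the combination's replicate 1 or 3 (down to 0.0238). Without the combination's replicate 2, the library at 54.8 CPM, the OGDH difference was 0.08 (adjusted p = 0.450). OGDH also passed with DESeq2 size factors (adjusted p = 0.0341) and in DESeq2's Wald test (0.0211), and IDH3B passed without the filter (0.0311), by total counts (0.0195) and on the TPM scale (0.0405).

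Compared with Sen (IR), cells given CCCP and acetate had IDH3B higher and 6 of the 9 genes lower, where 33.2% of all genes were higher and 32.7% lower (65.9% in either direction). With both additions 0 were higher and 6 lower, against 32.2% and 34.7% of all genes (66.9%). The 6 lower genes were IDH3G, OGDH, DLST, SUCLG1, FH and MDH2 in either case, although on the TPM scale SUCLG1 (0.04), FH (0.10) and MDH2 (0.03) had positive signs with acetate and FH (0.11) with both. OGDH stood at -1.12 ± 0.07, adjusted p = 4.97e-12 and IDH3G at -0.87 ± 0.08, adjusted p = 6.83e-09 with both. IDH3A (0.10 and 0.13) and SUCLA2 (0.05 and 0.03) did not pass in either, but both did by total counts and on the TPM scale, where the medians of all genes were shifted. The call of FH with both was lost without any 1 of 5 libraries, among them Sen (IR) replicate 1 and 2 (down to -0.12), in a fit of the compared groups alone (-0.17, adjusted p = 0.113) and by total counts (-0.11, adjusted p = 0.131). With acetate alone the FH call was lost by total counts too (-0.10, adjusted p = 0.169). On the TPM scale, with both, MDH2 (-0.02) and SUCLG1 (-0.08) did not pass as lower. IDH3A with both passed as higher with DESeq2 size factors (adjusted p = 0.0473) and in 13 of 18 fits that left out 1 library, and IDH3B passed without the combination's replicate 2 (0.19), by total counts (0.19) and on the TPM scale (0.39).

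Other genes of the pathway were counted from lists. Of all genes, 26.7% were called higher and 29.9% lower in Sen (IR) against Prol. With CCCP these shares were 34.0% and 31.3%, and with acetate 28.8% and 28.3%. With mtDNA 18.1% were called in either direction. The counts of the lists below stand beside these shares and were not tested against them. Of 11 other TCA cycle enzymes, 10 were tested. In Sen (IR) against Prol 1 was higher and 3 lower, led by IDH2, the mitochondrial enzyme that uses NADP in place of NAD (-0.96 ± 0.09, adjusted p = 4.86e-09), and by DLD (0.26 ± 0.05, adjusted p = 0.000125). With CCCP 2 were higher and 2 lower, IDH2 again (-1.41 ± 0.10, adjusted p = 2.60e-11) and DLD. Citrate synthase (CS), the enzyme just before the 9, rose with CCCP (0.26) and fell with acetate (-0.45 ± 0.04, adjusted p = 1.63e-09), where 1 of the list was higher and 3 lower. SUCLG2 fell with acetate as well (-0.32 ± 0.05, adjusted p = 2.60e-05), from 80.3 ± 2.85 to 64.2 ± 2.73 CPM, and 0 of the 10 were called with mtDNA.

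The list of pyruvate entry (carrier, dehydrogenase complex, its kinases and phosphatases) had 13 genes, of which 6 rose and 5 fell in Sen (IR). PDK4, a kinase that switches pyruvate dehydrogenase off, rose the most (2.81 ± 0.46, adjusted p = 2.04e-05), followed by PDHX, the subunit that binds DLD to the complex (0.89). With CCCP 3 rose and 6 fell, with PDK4 higher (1.29) and PDK2 lower (-1.19 ± 0.10, adjusted p = 7.86e-10), and with acetate 6 rose and 4 fell.

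Of 13 genes of anaplerosis and glutamine use, 12 were tested. In Sen (IR) 3 rose and 7 fell, with PCK2, the mitochondrial phosphoenolpyruvate carboxykinase that takes oxaloacetate out of the cycle, lowest (-2.35 ± 0.09, adjusted p = 3.96e-15). PCK2 was higher with CCCP (1.18 ± 0.10, adjusted p = 3.99e-10), among 3 higher and 5 lower, and ALDH18A1, which begins proline synthesis from glutamate, was lower (-1.48 ± 0.06, adjusted p = 2.22e-15). PCK2 rose further with acetate (1.71 ± 0.08, adjusted p = 6.63e-14), among 5 higher and 5 lower, and with mtDNA (1.25 ± 0.08, adjusted p = 3.82e-10), among 4 higher and 1 lower.

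The 7 cytosolic counterparts had 4 higher and 0 lower in Sen (IR), 2 higher and 4 lower with CCCP, and 3 higher and 1 lower with acetate. ACSS2, which activates acetate in cytosol and nucleus, fell with CCCP (-1.02 ± 0.07, adjusted p = 6.50e-11), and malic enzyme ME1 rose with acetate (0.63 ± 0.04, adjusted p = 3.34e-11). Of 9 carriers of cycle intermediates 8 were tested. SLC25A21, a carrier of 2-oxodicarboxylates, rose with CCCP (1.51 ± 0.18, adjusted p = 1.36e-07) and fell with acetate (-3.12 ± 0.20, adjusted p = 2.19e-11). Among 8 genes of assembly and lipoylation, SDHAF3 (1.35) and LIAS, the lipoyl synthase whose product DLST carries (0.93), rose with CCCP and NFU1, which supplies iron-sulfur clusters, fell (-0.74).

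**Figure D4:**
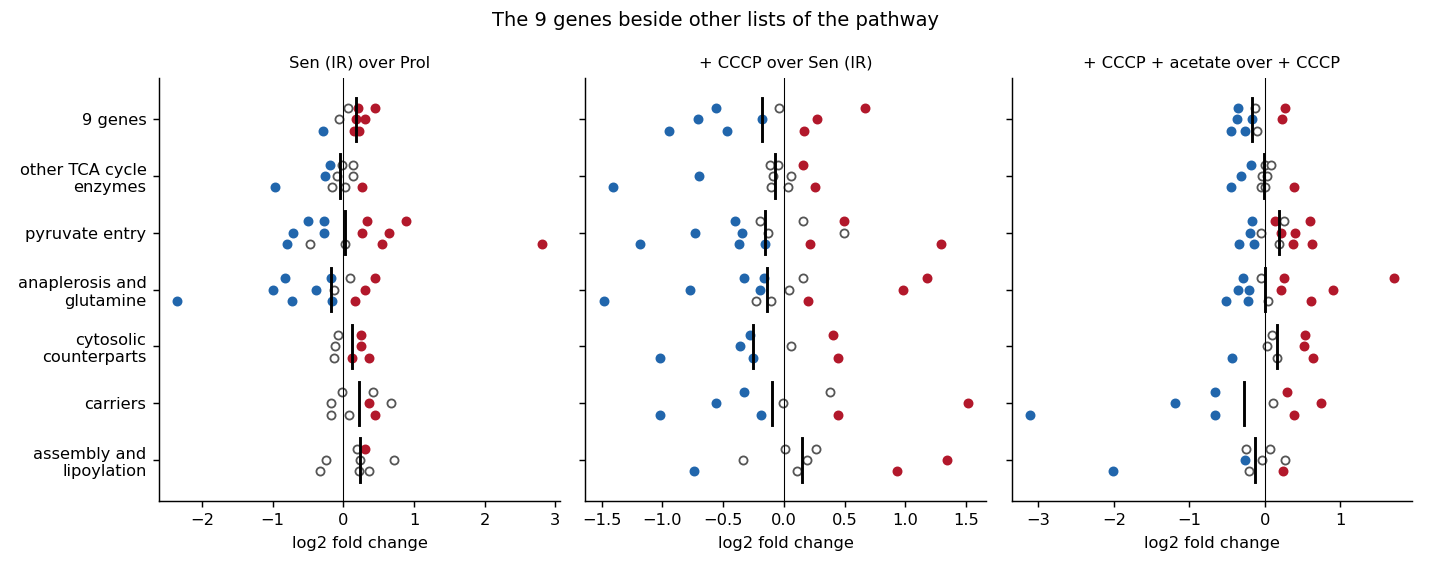
Log2 fold change (horizontal axis) of each tested gene of 7 lists in 3 comparisons, with red points higher, blue lower and open points short of an adjusted p of 0.05, and a black bar at the median of each list. The 9 genes sit between -0.95 and 0.67 in every panel, while single genes of other lists reach 2.81 (PDK4, Sen (IR)) and -3.12 (SLC25A21, acetate).

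Across the 18 libraries the members fell into patterns that shared groups and scaling, so correlations are given as descriptions. On log2 CPM, IDH3G and OGDH had a Pearson r of 0.941, IDH3B and SUCLA2 0.921, SUCLG1 and FH 0.920, and IDH3A and FH -0.909. For 8 of the members, the genes most like them among those tested are given, CLU for FH (r = 0.989), TTC14 for IDH3B (0.985), ANK2 for IDH3A (0.982) and ARFGAP1 for IDH3G (0.977). SCRN2 was closest to SUCLG1 (0.976), TMEM43 to DLST (0.975), LTV1 to SUCLA2 (0.963) and PISD to MDH2 (0.958).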

How the data were processed

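RNA-seq was performed on polyA RNA of IMR90 fibroblasts in 18 libraries (6 groups of 3), whose groups were taken from the sample labels, and every column had a sample (0 without). Reads were trimmed (Trimmomatic 0.36), aligned with STAR (2.5.2b) to GRCh38, and those mapping uniquely were counted over exons by featureCounts (Subread 1.5.2) by the authors, who deposited the raw counts. The authors also deposited TPM, in which counts are corrected for gene length and depth. Whether counting used strand is not given in the sources used here. Uniquely mapped counting can lower genes with near-identical copies.

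The counts were analysed with edgeR (4.0.16, R 4.3.3) by the quasi-likelihood F-test, with TMM scaling, filterByExpr by group, and 1 model of 6 group means over all 18 libraries without a replicate block. Adjusted p-values are Benjamini-Hochberg over 16994 genes, with a threshold of 0.05, in 11 contrasts. Errors of log2 fold changes are SE, those of levels are SD, and intervals are 95%. Library sizes were 24624886 to 46224280 counts, which leave a common biological coefficient of variation of 0.0644. Ratios of TPM were compared by exact two-sided permutation tests. Alternatives were DESeq2 (1.42.0) size factors and its Wald test, no filter, a minimum of 10 counts in all libraries (13249 genes), removal of mtDNA genes, a fit of the compared groups alone, the replicate block and each library left out. Scaling by total counts and limma (3.58.1) on log2(TPM + 1) were added after the data were seen. On simulated counts for acetate against CCCP (16443 genes), edgeR called 99 of 100 genes changed by 1 on the log2 scale, 76 of 100 changed by 0.5, and 6 unchanged genes.

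The 9 members were named in every comparison, and the members, lists and motifs were chosen with earlier results of these data known. Other genes were named where they were one of the 2 largest changes of their list past the threshold, or a partner subunit. The 4 senescence genes and the values of single libraries were chosen for display after their values were seen. Columns of the authors' own comparisons were not present among those used. Promoter windows came from RefSeq (GRCh38.p14) and gene positions from GENCODE v44. The closest gene to OGDH and 1 exon overlap are not reported here.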

Additional observations from a re-analysis of the deposited data

How the results depend on the processing

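Over 99 values of single genes, leaving out the mtDNA-encoded genes moved none across the threshold or 0, and the replicate block turned no sign. No pairing of libraries by replicate number was seen in the correlation of deviations from the group means. In 45 pairs of libraries with the same number it had a median of 0.00525 and a highest value of 0.0917. In 90 pairs with different numbers these were -0.00181 and 0.0954. A weak shared effect may be missed, because Sen (IR) replicate 3 and the combination's replicate 2 stand apart from their partners. The block added 3 calls, SUCLA2 for acetate against CCCP (adjusted p = 0.0483), IDH3G for the combination against CCCP (0.0389) and OGDH for the combination against acetate (0.0366), and changed no other. For the combination against CCCP the count of members called went from 8 to 5 with DESeq2 size factors, without a filter and with DESeq2's Wald test, and ranged from 5 to 8 with 1 library left out. For the combination against acetate it went from 0 to 1 with DESeq2 size factors, no filter, the block, DESeq2's Wald test, total counts and TPM, and ranged from 0 to 2 with 1 library left out. Where no scaling shift is named, the cause was not tested.

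Total counts and TPM, both chosen after seeing the data, moved the median of all genes as given above. Total counts called 8232 of 11666 genes higher for CCCP against Sen (IR), and TPM 9720 of 12328, against 5776 of 11088 with TMM. The interaction was called in 112 genes, in 413 without a filter and in 284 by DESeq2. By total counts the sign turned for SUCLG1 in Sen (IR) against Prol (0.026), for DLST (0.077) and MDH2 (0.22) with CCCP, and for DLST in CCCP against Prol (0.32). It also turned with mtDNA for IDH3B (-0.060), SUCLA2 (-0.021), SUCLG1 (-0.036), FH (-0.041) and MDH2 (-0.019), for SUCLG1 in the combination against CCCP (-0.0064), and for IDH3A (-0.024), DLST (-0.022) and FH (-0.011) in the combination against acetate. On the TPM scale it turned for SUCLG1 in Sen (IR) against Prol (0.0089), DLST (0.24) and MDH2 (0.39) with CCCP, and DLST in CCCP against Prol (0.47). With mtDNA it turned for IDH3B (-0.066), SUCLA2 (-0.026), SUCLG1 (-0.041), FH (-0.046) and MDH2 (-0.025), and in the combination against acetate for IDH3A (-0.0040) and DLST (-0.00053). Against Sen (IR) it turned for SUCLG1 (0.042), FH (0.10) and MDH2 (0.027) with acetate and FH (0.11) with both.

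IDH3B with mtDNA turned without a filter (-0.0047), with at least 10 counts (-0.0085) and in the groups compared alone (-0.0084). In the combination against acetate, IDH3G, SUCLA2 and MDH2 turned with DESeq2 size factors (7.3e-05, 0.0022 and 0.019) and in DESeq2's Wald test (0.0028, 0.0066 and 0.022). With 1 library left out, signs turned for IDH3G in Sen (IR) against Prol (-0.029 to 0.12), MDH2 with CCCP (-0.11 to 0.036), DLST in CCCP against Prol (-0.063 to 0.015) and SUCLA2 in the combination against Sen (IR) (-0.013 to 0.077). With mtDNA they turned for IDH3B (-0.032 to 0.058), IDH3G (-0.087 to 0.017), DLST (-0.012 to 0.012), SUCLG1 (-0.011 to 0.070) and FH (-0.0051 to 0.063). In the combination against acetate they turned for IDH3G (-0.092 to 0.053), DLST (-0.0088 to 0.078) and MDH2 (-0.033 to 0.0065), in the interaction for IDH3G (-0.054 to 0.090), OGDH (-0.0074 to 0.17) and FH (-0.017 to 0.053), and in the log2 ratio of SUCLA2 to SUCLG2 for the combination against CCCP (-0.012 to 0.086). The members had 411 to 5667 counts per library, and the precision of small differences rests on 3 libraries a group.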
